A study of Ogataea parapolymorpha with 16 samples.

Results

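Catalase (HPODL_04626) and cytochrome c peroxidase (HPODL_03354) are 2 of the 5408 genes of the yeast Ogataea parapolymorpha for which transcript levels were deposited, and both were among the 5233 genes tested. They were chosen by locus tag, with earlier results of these data known. The study had itself shown both in these cultures, among genes for detoxification of reactive oxygen species. The identity of catalase was taken by the study from a published annotation of the species, and HPODL_03354 was named by it as the ortholog of CCP1 of Saccharomyces cerevisiae. Messenger RNA had been sequenced from 2 independent cultures of each of 2 strains under 4 conditions, which gave 16 samples in 8 groups. CBS11895 is the wild type, and IMD010 was derived from it as a single clone with a frameshift of 1 base in NUBM (HPODL_04625), the gene for a subunit of respiratory complex I that binds NADH. Both strains grew aerobically in bioreactors on glucose. The 4 conditions were batch, with a specific growth rate of 0.37 per h, chemostats fed with limiting glucose at 0.1 per h or at 0.025 per h, and retentostats, in which biomass is held back in the reactor, sampled late at 0.001 per h. All 4 conditions thus differed in growth rate, and batch differed from the others also in that glucose was not limiting. By the study's methods, retentostats also had medium with more trace elements and vitamins, another base for pH control and a longer cultivation. Chemostats at 0.025 per h that preceded retentostats were run under the conditions of the latter. Effects of growth rate cannot be told apart from effects of these differences.

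Catalase and cytochrome c peroxidase are heme enzymes that remove hydrogen peroxide in different compartments and by different reactions. Catalase splits hydrogen peroxide into water and oxygen, and in methylotrophic yeasts such as Ogataea species it resides in peroxisomes, where oxidases form hydrogen peroxide. Peroxisomal enzymes of these yeasts, catalase included, are known to be repressed by abundant glucose. Cytochrome c peroxidase, known best from S. cerevisiae, resides between the 2 mitochondrial membranes and reduces hydrogen peroxide to water with electrons from cytochrome c, the carrier that otherwise feeds cytochrome c oxidase.

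The reads behind the deposited values added up to between 16522183 and 20898681 per sample. Catalase was covered by 10446 to 98607 reads and cytochrome c peroxidase by 2111 to 19215, so that counting error was at most 0.978% and 2.18% of a value, and precision was limited by the number of cultures. The frameshift in NUBM does not remove its transcript: its mean level was 1808 to 2994 TMM-normalized FPKM (a unit explained with the levels of the 2 genes) over the 4 conditions of CBS11895 and 1694 to 4009 over those of IMD010, so that its level could not check the strain labels. Samples of 2 groups stood apart from the rest. The 2 IMD010 chemostat cultures at 0.1 per h stood far apart from each other, with an SD over genes of 0.889 for their log2 difference where other groups had 0.135 to 0.282, and results that rest on them are given with and without each of them. The batch cultures of CBS11895 were low for short genes: the median log2 fold change of IMD010 over CBS11895 in batch was 0.40 for the 1956 genes tested that are shorter than 1000 bp and −0.42 for the 2320 genes from 1000 bp to under 2000 bp, the range in which catalase (1524 bp) and cytochrome c peroxidase (1056 bp) lie. Contrasts of the 2 genes with batch are therefore also given with the length trend removed, that is, with a loess curve over length subtracted from every sample. The ratio of the 2 genes and the counts over gene lists are given without this step.

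Catalase lies on chromosome II at 173749 to 175272 and cytochrome c peroxidase on chromosome IV at 589601 to 590656 (RefSeq assembly of the species). Both were transcripts of high abundance. Expressed as RPKM on annotated length (reads per kb, scaled to library size), catalase ran from 357 to 3707 and ranked 38 to 443 among the 5325 protein-coding genes of a sample. Cytochrome c peroxidase ran from 107 to 1017 on the same scale and ranked 230 to 1222. On this scale catalase was above cytochrome c peroxidase in every sample. The deposited FPKM values give the opposite order, since the authors divided the reads of catalase by 180 and those of cytochrome c peroxidase by 20, which are not the annotated lengths, and FPKM values are therefore compared below only between cultures within a gene.

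Levels of both genes were lowest in batch and highest in retentostat cultures of both strains. In batch cultures of CBS11895, catalase was at 5630 and 6418 TMM-normalized FPKM (deposited FPKM values divided by a factor that aligns the bulk of genes between samples). It was at 18947 and 18205 in chemostat cultures at 0.1 per h, at 27124 and 25241 at 0.025 per h, and at 31053 and 32113 in retentostat cultures. The 4 conditions did not overlap, and catalase was higher at each lower growth rate. In IMD010, catalase was at 2770 and 3399 in batch, at 25747 and 17883 at 0.1 per h, at 23380 and 23343 at 0.025 per h, and at 31558 and 28011 in retentostat cultures. Here the values at 0.1 per h spanned those at 0.025 per h, while batch lay below and the retentostat cultures above all others. These levels are shares of the messenger RNA of a culture, so that a low level in all cells and a high level in few cells cannot be told apart.

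Cytochrome c peroxidase was at 7812 and 6752 TMM-normalized FPKM in batch cultures of CBS11895 and at 33341 and 31900 in chemostat cultures at 0.1 per h. It was at 30105 and 40367 at 0.025 per h and at 54460 and 51124 in retentostat cultures. The values at 0.1 per h lay between those of the cultures at 0.025 per h, while batch was below and retentostat above all chemostat cultures. In IMD010, cytochrome c peroxidase was at 8365 and 9399 in batch, at 35478 and 31251 at 0.1 per h, at 34756 and 37040 at 0.025 per h, and at 53717 and 53058 in retentostat cultures. Again the chemostat rates overlapped and batch and retentostat cultures stood clear of them.

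**Figure D1:**
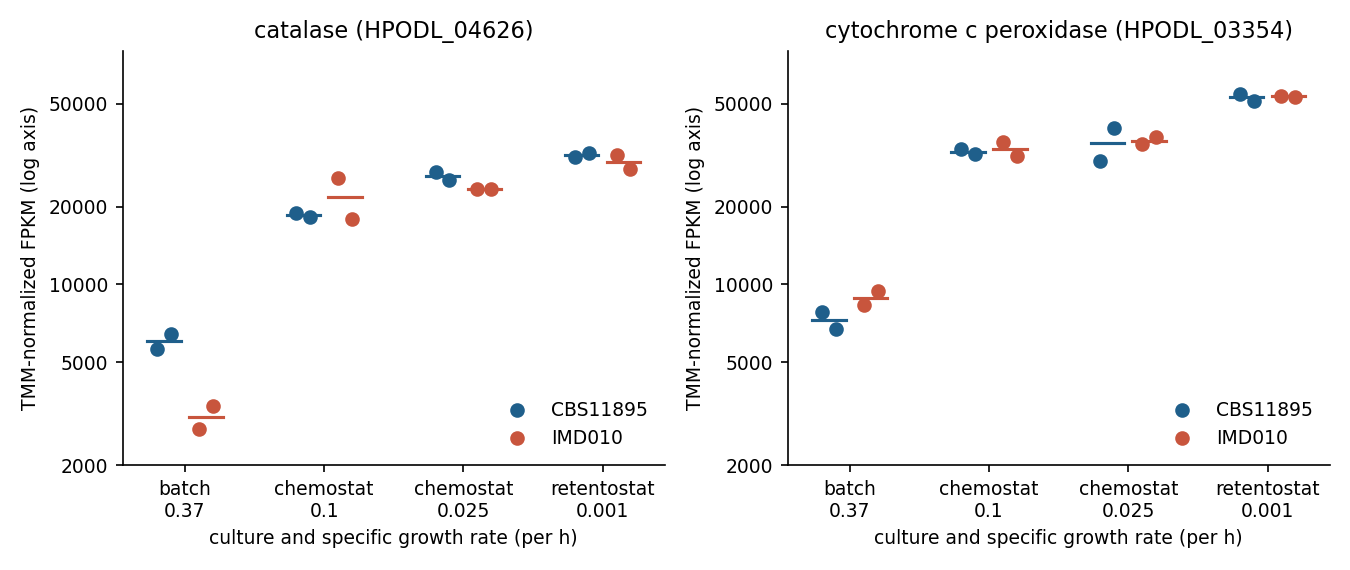
Transcript levels of catalase and cytochrome c peroxidase in TMM-normalized FPKM (log axis) by condition, with 1 point per culture and a line at the mean of the 2 cultures of a group. Catalase in batch is at 5630 and 6418 in CBS11895 and at 2770 and 3399 in IMD010, while the points for cytochrome c peroxidase in batch run from 6752 to 9399.

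The question of the strain comparison was whether levels depend on a functional NUBM. In batch cultures catalase was lower in IMD010 than in CBS11895, and the cultures of the strains did not overlap. Means ± SD over 2 cultures were 6024 ± 558 in CBS11895 and 3084 ± 445 TMM-normalized FPKM in IMD010. The log2 fold change was −0.97 (standard error 0.17, 95% confidence interval −1.34 to −0.60) with an FDR of 0.000571, the Benjamini-Hochberg adjusted p-value of limma over all genes tested. This was 1 of 2245 genes called lower at an FDR under 0.05, or 42.9% of the genes tested, and 1009 genes from the low end of the list, so that the call by itself does not set catalase apart. Among genes from 1000 bp to under 2000 bp, the range of catalase, 50.4% were called lower. The median over all genes was −0.21, and without a factor beyond the library total it was 0.13, with 2018 genes higher and 1545 lower in place of 1599 and 2245. Catalase stayed lower under that scaling (−0.62, FDR = 0.00251) and with the length trend removed (−0.69, FDR = 0.00175).

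Cytochrome c peroxidase was not called between the strains in batch, where means were 7282 ± 750 in CBS11895 and 8882 ± 731 in IMD010 (log2 fold change 0.29, interval −0.04 to 0.62, limma FDR = 0.103). The 2 IMD010 cultures lay above both of CBS11895. The call depended on the scaling, since without a factor beyond the library total the log2 fold change was 0.64 with an FDR of 0.00191.

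In the glucose-limited cultures neither gene was called between the strains, and at most 3.59% of the genes tested were called under any of these conditions. For catalase the log2 fold changes of IMD010 over CBS11895 were 0.21 at 0.1 per h (interval −0.16 to 0.58, FDR = 0.33, 3.36% of genes called), −0.16 at 0.025 per h (interval −0.54 to 0.21, FDR = 0.759, 1.49% called) and −0.09 in retentostat cultures (interval −0.46 to 0.29, FDR = 0.917, 3.59% called). At 0.1 per h this value was −0.05 without IMD010 culture 1 and 0.47 without IMD010 culture 2, and the latter was called (FDR = 0.00606) with 4128 genes in all. For cytochrome c peroxidase the log2 fold changes were 0.03 (interval −0.30 to 0.36), 0.04 (interval −0.29 to 0.37) and 0.02 (interval −0.31 to 0.35) in the same order, with FDRs of 0.881, 0.95 and 0.99. These intervals reach from −0.54 to 0.58 for catalase and from −0.31 to 0.37 for cytochrome c peroxidase, and the strains cannot be said to be equal within them.

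The change from batch to glucose limitation was large for both genes and both strains. All contrasts with batch share the 2 batch cultures of a strain and are not independent of each other. In CBS11895, catalase rose 3.09-fold at 0.1 per h (log2 fold change 1.63, standard error 0.17, limma FDR = 1.05e-05), where 36.1% of the genes tested were called higher. It rose 4.35-fold at 0.025 per h (2.12, FDR = 7.69e-07, 38.9% called higher) and 5.25-fold in retentostat cultures (2.39, FDR = 2.8e-07, 39.0% called higher). Cytochrome c peroxidase rose 4.49-fold, 4.80-fold and 7.26-fold in the same contrasts (log2 fold changes 2.17, 2.26 and 2.86, standard error 0.15 each, FDR = 6.22e-07, 1.99e-07 and 3.13e-08). At 0.1 per h catalase ranked 801 and cytochrome c peroxidase 489 from the top of the 5233 genes.

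In IMD010, catalase rose 6.99-fold at 0.1 per h (log2 fold change 2.81, standard error 0.17, FDR = 2.87e-07, 27.7% of genes called higher), 7.61-fold at 0.025 per h (2.93, FDR = 1.24e-07, 28.0% called higher) and 9.69-fold in retentostat cultures (3.28, FDR = 2.84e-08, 31.3% called higher). Cytochrome c peroxidase rose 3.76-fold, 4.05-fold and 6.02-fold (1.91, 2.02 and 2.59, FDR = 2.56e-06, 9.34e-07 and 6.66e-08). At 0.1 per h catalase ranked 116 and cytochrome c peroxidase 236 from the top. Without IMD010 culture 1 at 0.1 per h the log2 fold changes at that rate were 2.54 and 1.82, and without culture 2 they were 3.07 and 2.00. With the length trend removed, the log2 fold changes of the 2 genes over batch ran from 1.89 to 2.85 in CBS11895 and from 1.89 to 3.28 in IMD010.

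**Figure D2:**
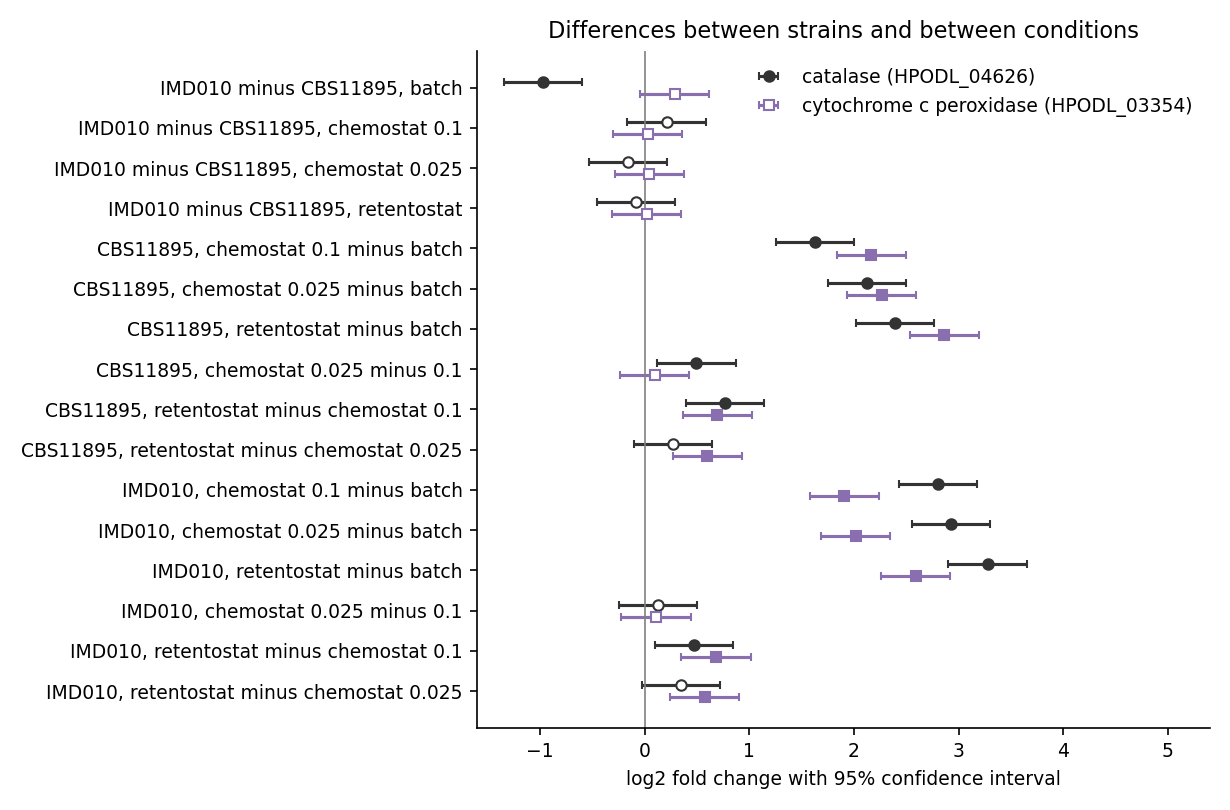
Log2 fold changes of catalase (circles) and cytochrome c peroxidase (squares) for each comparison of strains and of conditions, with 95% confidence intervals from limma; filled symbols passed an FDR under 0.05. Among the strain comparisons the filled symbol is catalase in batch at −0.97, and all contrasts of a glucose-limited condition with batch lie between 1.63 and 3.28.

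Whether the response differed between the strains was tested with interaction contrasts. For catalase the rise over batch was larger in IMD010 by 1.18 on the log2 scale at 0.1 per h (standard error 0.24, limma FDR = 0.00146, 44.0% of genes called higher), by 0.81 at 0.025 per h (FDR = 0.0154, 34.9% called higher) and by 0.88 in retentostat cultures (FDR = 0.0123, 29.4% called higher). These contrasts share the batch cultures, in which catalase was lower in IMD010, and the background of calls was high in each. With the length trend removed the differences were 0.79 (FDR = 0.00517), 0.50 (FDR = 0.0551) and 0.60 (FDR = 0.0346), so that the one at 0.025 per h was no longer called. Without a factor beyond the library total, the one in retentostat cultures was 0.42 (FDR = 0.0938). Sample quality weights, which give less weight to samples that scatter more, left that at 0.1 per h at 1.18 but with an FDR of 0.0701. Leaving out IMD010 batch culture 1 took away the calls at 0.025 per h (0.66, FDR = 0.0648) and in retentostat cultures (0.74, FDR = 0.054), as did leaving out CBS11895 batch culture 2 at 0.025 per h (0.63, FDR = 0.0598) and IMD010 retentostat culture 1 in retentostat cultures (0.70, FDR = 0.0603).

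For cytochrome c peroxidase the same contrasts were −0.26, −0.25 and −0.27 (standard error 0.21 each, FDR = 0.282, 0.325 and 0.291) and were not called. They were called without a factor beyond the library total, at −0.72, −0.51 and −0.74 (FDR = 0.00615, 0.0412 and 0.0108). Between the glucose-limited conditions no interaction was called for either gene. For catalase these were −0.37, −0.30 and 0.08 (FDR = 0.54, 0.375 and 0.977), at backgrounds of 0.00%, 0.783% and 0.325% of genes called. In the first of these contrasts limma called 0 genes with 299 at an unadjusted p-value under 0.05, and limma with voom weights on recovered reads also called 0. Without IMD010 culture 2 at 0.1 per h, the first 2 of them were −0.63 (FDR = 0.00618) and −0.56 (FDR = 0.0108) and were called, together with 3493 and 3856 genes in all, and without culture 1 they were −0.11 and −0.03.

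Among the glucose-limited conditions, both genes rose from chemostat cultures at 0.1 per h to retentostat cultures. In CBS11895 catalase rose 1.70-fold (log2 fold change 0.77, standard error 0.17, FDR = 0.0046) and cytochrome c peroxidase 1.62-fold (0.69, standard error 0.15, FDR = 0.00396), where 18.0% of the genes tested were called higher. In IMD010 cytochrome c peroxidase rose 1.60-fold (0.68, FDR = 0.00274) and catalase 1.39-fold (0.47, FDR = 0.0331), where 29.4% were called higher. The IMD010 values rest on the divergent cultures at 0.1 per h. Without culture 1 at 0.1 per h the log2 fold changes were 0.73 for catalase and 0.77 for cytochrome c peroxidase, and without culture 2 they were 0.21 for catalase, no longer called (FDR = 0.156), and 0.59 for cytochrome c peroxidase (FDR = 0.00424). Without IMD010 retentostat culture 1 the catalase call was also lost (0.43, FDR = 0.103). When the 4 samples of this contrast were fitted alone, neither IMD010 call was kept (FDR = 0.333 and 0.159).

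The steps that make up this rise were also read separately for each gene. From 0.1 to 0.025 per h in CBS11895, catalase rose 1.41-fold (log2 fold change 0.49, interval 0.12 to 0.87, FDR = 0.0479, 13.5% of genes called higher), while cytochrome c peroxidase was 1.07-fold higher without passing (0.10, interval −0.23 to 0.43, FDR = 0.663). The catalase call was not kept when any of the 4 cultures concerned was left out (0.44 to 0.55, FDR 0.114 to 0.195). From 0.025 per h to retentostat cultures, cytochrome c peroxidase rose 1.51-fold in CBS11895 (0.60, interval 0.27 to 0.93, FDR = 0.0187, 9.98% called higher) and 1.49-fold in IMD010 (0.57, interval 0.24 to 0.90, FDR = 0.0148, 13.6% called higher). Leaving out single cultures ended 3 of 4 of these calls in CBS11895 and all 4 in IMD010, with log2 fold changes between 0.39 and 0.81 (FDR up to 0.17) and between 0.53 and 0.62 (FDR 0.0556 to 0.103). Catalase was 1.21-fold and 1.27-fold higher in this step without passing (0.27, interval −0.10 to 0.64, FDR = 0.304 in CBS11895; 0.35, interval −0.03 to 0.72, FDR = 0.155 in IMD010). From 0.1 to 0.025 per h in IMD010 neither gene was called (0.12 for catalase, FDR = 0.552; 0.11 for cytochrome c peroxidase, FDR = 0.555; 23.9% of genes called higher). Whether these steps differed between the genes was not tested.

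Ordered by level, catalase was highest in CBS11895 retentostat cultures (mean 31583), followed by IMD010 retentostat (29784), CBS11895 at 0.025 per h (26183), IMD010 at 0.025 per h (23362), IMD010 at 0.1 per h (21815), CBS11895 at 0.1 per h (18576), CBS11895 batch (6024) and IMD010 batch (3084). Of the neighbours in this order that were compared in the fit, the last 2 steps passed the test and the others did not. For cytochrome c peroxidase the order was IMD010 and CBS11895 retentostat (53387 and 52792), IMD010 and CBS11895 at 0.025 per h (35898 and 35236), IMD010 and CBS11895 at 0.1 per h (33365 and 32621), and IMD010 and CBS11895 batch (8882 and 7282). Within each of these pairs of strains the difference did not pass the test.

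The relation to specific growth rate was also read by regression of mean-normalized levels (each value divided by the mean of the 6 glucose-limited cultures of a strain) on the growth rate. In CBS11895 the mean-normalized level of catalase was 0.745 and 0.715 at 0.1 per h, 1.07 and 0.992 at 0.025 per h, and 1.22 and 1.26 at 0.001 per h. Its slope was −4.88 (standard error 0.56) per unit of growth rate in per h, with R2 of 0.949 and an adjusted p-value over all genes of 0.0107, which passed the thresholds of an adjusted p-value under 0.1 and R2 above 0.8. A negative slope was called for 12.2% of the genes tested. An exact two-sided permutation test over the 90 arrangements of the rates gave p = 0.0111 for this gene, the smallest value possible. In IMD010 the slope of catalase was −2.65 (standard error 1.52, R2 0.43, adjusted p-value 0.281, exact p = 0.189), where 5.58% of genes had a called negative slope, and it was −4.61 without culture 1 at 0.1 per h and −1.21 without culture 2.

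Cytochrome c peroxidase had a slope of −4.06 in CBS11895 (standard error 1.93, R2 0.527, adjusted p-value 0.194, exact p = 0.1) and of −3.96 in IMD010 (standard error 1.70, R2 0.574, adjusted p-value 0.196, exact p = 0.0889), neither of which passed. Its mean-normalized levels were 0.749 to 1.00 at both chemostat rates of CBS11895 and 1.27 and 1.35 in retentostat cultures, and 0.764 to 0.906 and 1.30 and 1.31 in IMD010. The rise was thus found at the lowest rate, and a line in growth rate left much of it unexplained. On a log2 scale against log10 of growth rate both slopes passed (−0.36, adjusted p-value 0.0545, and −0.35, adjusted p-value 0.0325). In CBS11895 the linear slope also passed without culture 1 at 0.025 per h (−4.47, adjusted p-value 0.0599). The slopes of IMD010 and CBS11895 did not differ by test for catalase (difference 2.23, interval −1.52 to 5.98, adjusted p-value 0.541) or cytochrome c peroxidase (0.10, interval −5.83 to 6.03, adjusted p-value 0.986), and 0.00% of genes were called in that test (319 at an unadjusted p-value under 0.05).

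**Figure D3:**
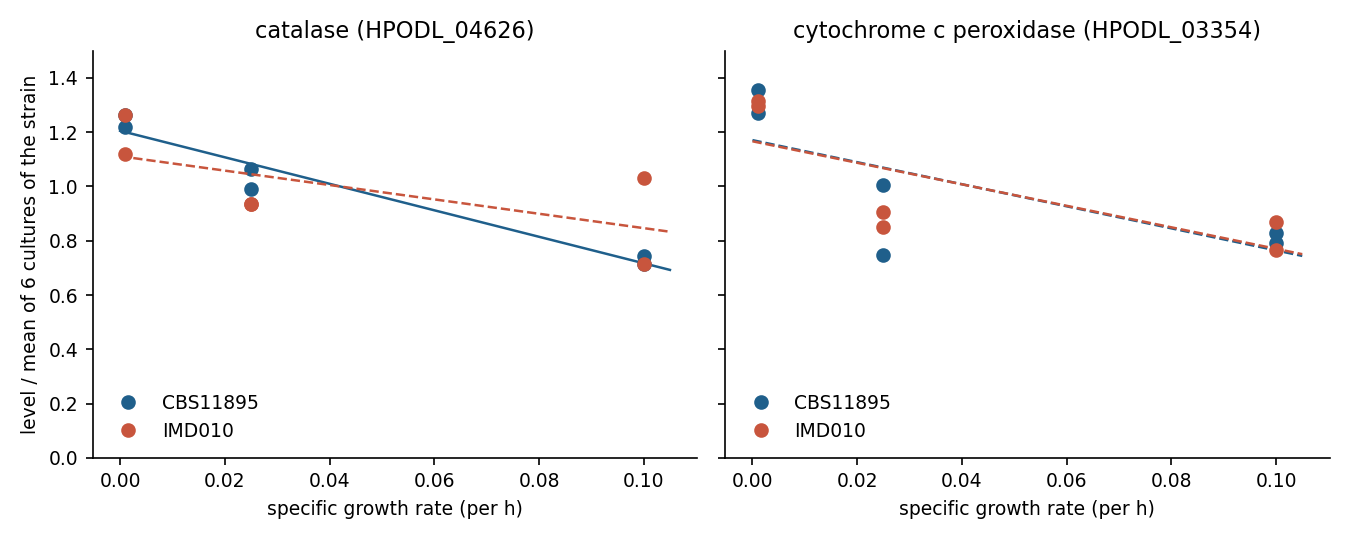
Mean-normalized transcript levels of catalase and cytochrome c peroxidase against specific growth rate (per h) in the 6 glucose-limited cultures of each strain, with the least squares lines; the line is solid where the slope was called and dashed where it was not. The catalase points of CBS11895 fall from 1.26 to 0.715 along a line, while for cytochrome c peroxidase the points at 0.001 per h lie at 1.27 to 1.35 and all others at or below 1.00.

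The ratio of the 2 transcripts within a sample does not depend on the scaling between samples. Per annotated length, catalase exceeded cytochrome c peroxidase 4.49-fold and 5.93-fold in batch cultures of CBS11895 and 2.07-fold and 2.26-fold in those of IMD010. At 0.1 per h the ratio was 3.54 and 3.56 in CBS11895 and 4.53 and 3.57 in IMD010, at 0.025 per h it was 5.62 and 3.90 in CBS11895 and 4.20 and 3.93 in IMD010, and in retentostat cultures it was 3.56 and 3.92 in CBS11895 and 3.66 and 3.29 in IMD010. The IMD010 batch cultures lay below every other culture, and the CBS11895 batch cultures overlapped with its chemostat cultures.

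The change of this ratio with condition was tested by exact two-sided permutation within strain (smallest possible p = 0.00444), on the log2 scale and for 2 comparisons. Between retentostat and chemostat cultures the mean difference was −0.17 (−0.13 in CBS11895 and −0.22 in IMD010, exact p = 0.24), which did not pass. Between batch and chemostat cultures it was −0.28 (exact p = 0.298), the mean of 0.34 in CBS11895 and −0.90 in IMD010. The strains thus had opposite signs in batch, and the mean over both does not describe either. The length trend was not removed from the ratio. CBS11895 batch cultures were low for short genes, and cytochrome c peroxidase is the shorter of the 2 genes. How far this trend enters the CBS11895 value was not tested. Adjusted over the 2 comparisons, both p-values were 0.298.

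**Figure D4:**
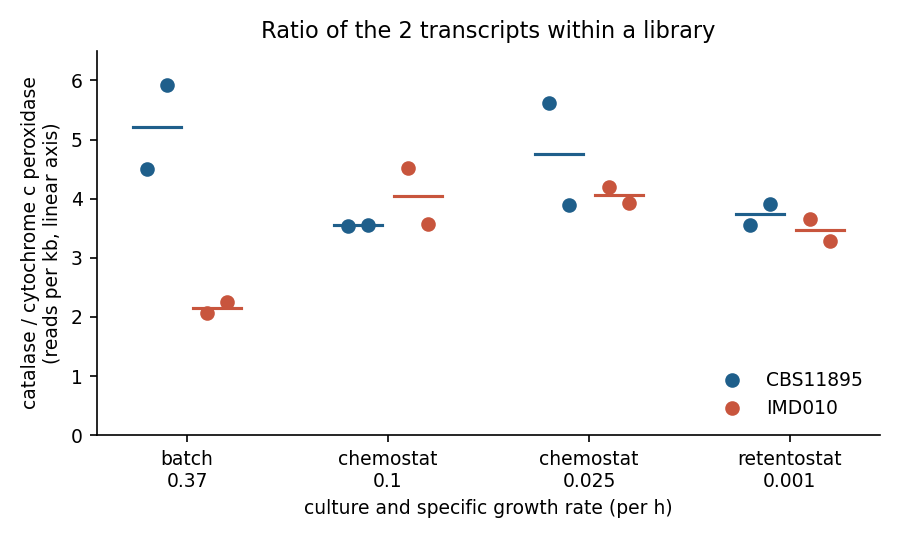
Ratio of catalase to cytochrome c peroxidase in reads per kb of annotated length within each sample (linear axis), by condition, with 1 point per culture and a line at the mean of the 2 cultures of a group. The IMD010 batch cultures sit at 2.07 and 2.26, below all others, which run from 3.29 to 5.93.

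Since catalase lies next to the disrupted gene, the genes on either side were also read. NUBM lies 636 bases from catalase on its lower side with HPODL_04624 beyond it, and HPODL_05114 (297 bp) and HPODL_04627 follow catalase. The labels name a library kit that does not mark strand, while the study's methods describe a strand-specific library, and whether counting used strand is not given in the sources used here. In batch the log2 fold changes of IMD010 over CBS11895 were −0.29 for NUBM (FDR = 0.0795), −0.87 for HPODL_04624 (FDR = 0.00186), −1.30 for HPODL_05114 (FDR = 0.000259) and −1.24 for HPODL_04627 (FDR = 0.00266), so that 3 of the 4 were called lower, as was catalase, at the background of 42.9%. By length, the share called lower was 26.3% of genes under 1000 bp, HPODL_04624 and HPODL_05114 among them. It was 50.4% of those from 1000 bp to under 2000 bp, where NUBM and HPODL_04627 lie. NUBM was at 1963 and 2132 TMM-normalized FPKM in CBS11895 and at 1449 and 1940 in IMD010 batch cultures.

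Between conditions the genes around catalase had changes of other sizes and signs. From 0.1 per h to retentostat cultures of CBS11895, in which catalase rose 1.70-fold, HPODL_04627 fell from 3395 ± 12.2 to 58.8 ± 3.16 TMM-normalized FPKM (log2 fold change −5.83, FDR = 4.35e-07), HPODL_04624 fell by 0.62 on the log2 scale (FDR = 0.0242), and NUBM (−0.37, FDR = 0.0567) and HPODL_05114 (0.23, FDR = 0.408) did not pass. From batch to 0.1 per h in CBS11895, NUBM rose by 0.55 on the log2 scale (FDR = 0.00378) against 1.63 for catalase, HPODL_04627 rose by 2.82, and HPODL_04624 and HPODL_05114 fell by 2.30 and 1.13.

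Around cytochrome c peroxidase, HPODL_03352, HPODL_03353 and HPODL_03356, with annotated lengths of 870, 573 and 429 bp, were higher in IMD010 batch cultures by 2.16, 1.18 and 2.47 on the log2 scale (FDR = 6.27e-05, 0.000194 and 1.61e-05), and HPODL_03355 (702 bp) was lower (−1.07, FDR = 0.00697). All 4 are shorter than 1000 bp, a range in which 50.3% of the genes tested were called higher and 26.3% lower in this contrast. HPODL_03353 rose with cytochrome c peroxidase from 0.1 per h to retentostat cultures, by 1.35 in CBS11895 (FDR = 0.00012) and 1.76 in IMD010 (FDR = 1.09e-05), and the other 3 did not pass this test in CBS11895.

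Over the 16 samples, the log2 levels of catalase and cytochrome c peroxidase had a Pearson correlation of 0.945, given as a description of samples that fall into 8 groups and share the step from batch to glucose limitation. Cytochrome c peroxidase ranked 120 among the genes most like catalase, and catalase ranked 98 among those most like cytochrome c peroxidase, with 255 and 246 genes above a correlation of 0.9. The 5 genes closest to catalase were HPODL_05141 (0.992), HPODL_05010 (0.992), HPODL_00543 (0.99), HPODL_00416 (0.99) and HPODL_00988 (0.989). HPODL_00543 is annotated as a putative 2-hydroxyacyl-CoA lyase and HPODL_00988 as a diacetyl reductase. HPODL_05010 ran from a mean of 398 TMM-normalized FPKM in batch to 4945 in retentostat cultures of CBS11895, and from 185 to 3812 in IMD010. The 5 closest to cytochrome c peroxidase were HPODL_04224 (0.988), HPODL_04474 (0.986), HPODL_02632 (0.983), HPODL_01450 (0.98), annotated as glycogen phosphorylase 1, the enzyme that releases glucose phosphate from glycogen, and HPODL_03145 (0.98).

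Other genes of peroxide metabolism were read from 6 lists formed by words in product names. Names were at hand for 1999 genes only (37.0% of all), so that neither catalase nor cytochrome c peroxidase is on a list and the lists are not complete. The counts are read against all genes tested. From batch to 0.1 per h, 36.1% of these were called higher and 37.9% lower in CBS11895, and 27.7% and 24.0% in IMD010. From 0.1 per h to retentostat cultures the shares were 18.0% higher and 18.0% lower in CBS11895 and 29.4% and 29.5% in IMD010. The first list, by words for removal of peroxide and superoxide, held 6 genes, 3 of them peroxiredoxins, which reduce peroxides through a reactive cysteine. Its words also took in HPODL_01896, named as a copper chaperone of superoxide dismutase 1 and not as an enzyme of removal. From batch to 0.1 per h, 2 of the 6 rose and 2 fell in CBS11895, and likewise in IMD010, with medians of 0.19 and −0.03 on the log2 scale beside −0.04 and 0.00 for all genes. From 0.1 per h to retentostat cultures 2 rose and 3 fell in CBS11895 and 2 rose and 2 fell in IMD010, with medians of −0.08 and −0.16 beside −0.01 and 0.02 for all genes, and values in CBS11895 ran from −1.84 to 1.94. Without any 1 of the 4 cultures of this step in CBS11895 the number of falls was 1, and in the step from batch it was 1 without CBS11895 batch culture 2 or either culture at 0.1 per h. With 6 genes these counts do not set the list apart from all genes, and it had members moving both ways while catalase and cytochrome c peroxidase rose in both steps.

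Of the genes of this list, the peroxiredoxin TSA1 (HPODL_00527), in S. cerevisiae the main cytosolic peroxiredoxin, fell by 2.81 on the log2 scale from batch to 0.1 per h (FDR = 1.33e-06) and by a further 1.84 to retentostat cultures in CBS11895 (standard error 0.22, FDR = 7.34e-05). In IMD010 it fell by 0.88 and 2.41 (FDR = 0.00612 and 6.69e-06). AHP1 (HPODL_00398), a thiol-specific peroxiredoxin, rose by 1.67 from 0.1 per h to retentostat cultures of CBS11895 (FDR = 0.00132) and by 0.75 in IMD010 (FDR = 0.0488). The superoxide dismutase HPODL_01412, which converts superoxide into hydrogen peroxide and oxygen, rose by 1.94 (FDR = 3.41e-06) and 2.38 (FDR = 4.2e-07) in this step. A second gene with the same product name, HPODL_01414, chosen after its values were seen, fell by 0.68 in CBS11895 (FDR = 0.0125). Ambiguously mapped reads had been removed by the authors, and whether these genes share any sequence was not examined. Peroxiredoxin Q/BCP (HPODL_00254) rose by 2.02 from batch to 0.1 per h in CBS11895 (FDR = 1.75e-05) and then fell by 0.81 to retentostat cultures (FDR = 0.0172).

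**Figure D5:**
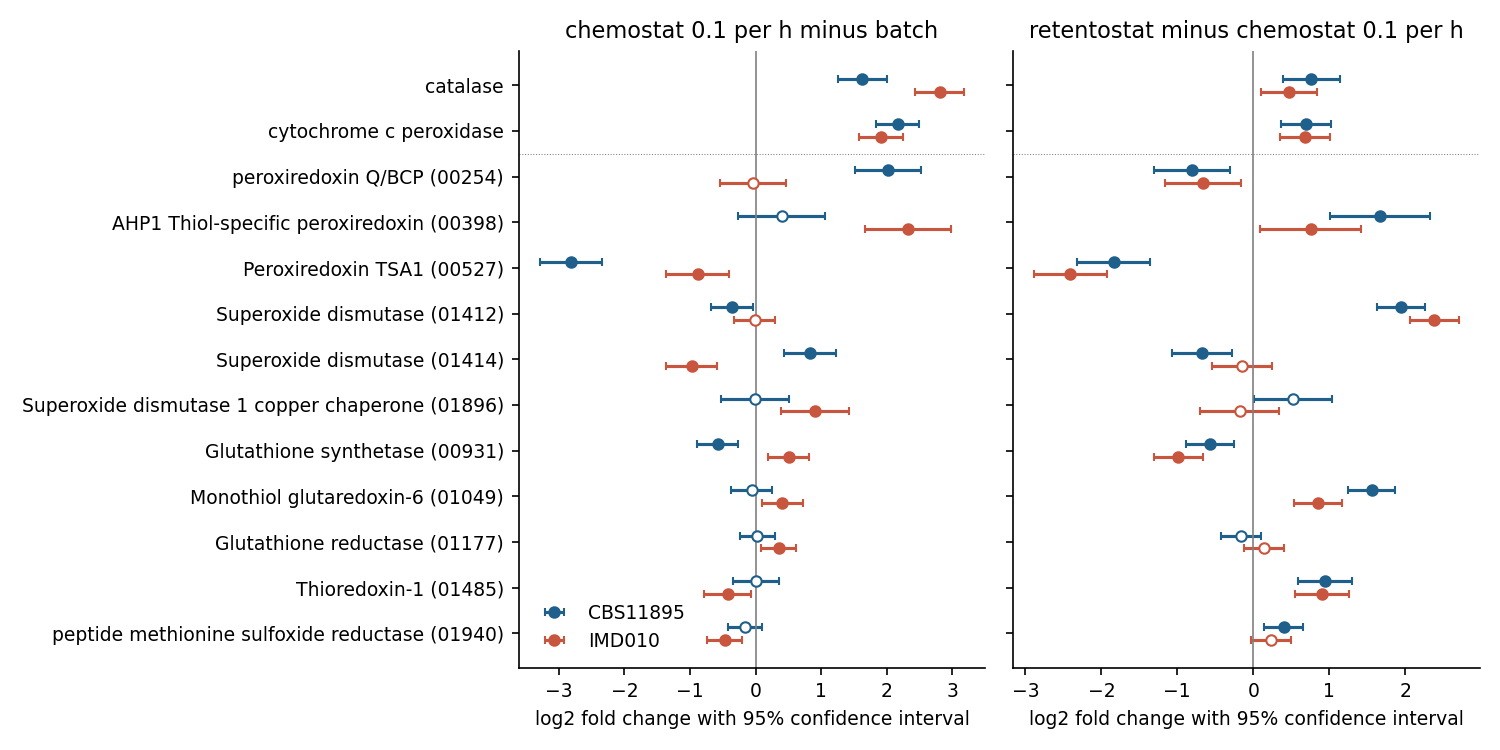
Log2 fold changes with 95% confidence intervals for catalase, cytochrome c peroxidase and the listed genes of peroxide, superoxide and thiol metabolism, from batch to chemostat cultures at 0.1 per h (left) and from there to retentostat cultures (right); filled points passed an FDR under 0.05. Catalase and cytochrome c peroxidase are above 0 and filled in both panels and both strains, while Peroxiredoxin TSA1 lies at −2.81 and −1.84 in CBS11895.

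The list for thiol redox control held 5 genes. From 0.1 per h to retentostat cultures of CBS11895, 3 of them rose and 1 fell: monothiol glutaredoxin-6 (HPODL_01049) rose by 1.56 on the log2 scale (FDR = 1.24e-05), thioredoxin-1 (HPODL_01485) by 0.94 (FDR = 0.000969) and a peptide methionine sulfoxide reductase (HPODL_01940), which repairs oxidized methionine, by 0.40 (FDR = 0.022), while glutathione synthetase (HPODL_00931) fell by 0.57 (FDR = 0.0104). The background was 18.0% called higher, and the median was 0.40 beside −0.01 for all genes. In IMD010 2 rose and 1 fell at a background of 29.4% called higher (median 0.23 beside 0.02). From batch to 0.1 per h none of the 5 rose in CBS11895, where 4 of them rose without a factor beyond the library total, and 3 rose in IMD010. The last count was 0 without IMD010 batch culture 1 and 1 without culture 2.

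The lists of peroxisomal proteins (15 genes) and of oxidation (10 genes, with HPODL_01791 on both lists) were meant to bear on the compartment of catalase. The words for the second list also took in a mitochondrial 2-methylisocitrate lyase (HPODL_01752) and a dihydroxyacetone kinase (HPODL_01039). Its counts and medians therefore do not describe that compartment or peroxide formation alone. From batch to 0.1 per h, 7 of the 15 peroxisomal genes rose and 4 fell in CBS11895, and 11 rose and 1 fell in IMD010 (2 falls in CBS11895 without its batch culture 1 or either culture at 0.1 per h; medians 0.28 and 1.29 on the log2 scale beside −0.04 and 0.00 for all genes). Beside 36.1% and 27.7% of all genes called higher, the 7 of 15 in CBS11895 was near the background and the 11 of 15 in IMD010 above it. Of the 10 oxidation genes, 6 rose and 3 fell in CBS11895 and 7 rose and 2 fell in IMD010 (medians 0.78 and 2.07). When the samples of the contrast were fitted alone, 3 of the 15 peroxisomal genes rose in IMD010, and with sample quality weights 4 of the 15 and 2 of the 10 rose. In batch, 9 of the 15 and 7 of the 10 were lower in IMD010 than in CBS11895 (medians −0.58 and −0.79 beside −0.21 for all genes), at a background of 42.9%. This background depended on length: 26.3% of genes under 1000 bp, 50.4% from 1000 bp to under 2000 bp and 58.5% of longer genes were called lower. Medians in these ranges were 0.40, −0.42 and −0.53. The lists were not matched for length, so that these counts do not set them apart.

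From 0.1 per h to retentostat cultures of CBS11895, 4 of the 15 peroxisomal genes rose and 1 fell, beside 18.0% of all genes called in each direction, which is no result about the list. The peroxisomal membrane proteins PMP47B (HPODL_00941), PEX23 (HPODL_01523) and PEX6 (HPODL_01223, needed for import of peroxisomal proteins) rose by 1.36, 0.84 and 0.43 on the log2 scale (FDR = 7.49e-06, 0.00126 and 0.0328), and the peroxisomal nudix pyrophosphatase HPODL_00582 fell by 0.62 (FDR = 0.0164). Of the oxidation genes 4 rose and 1 fell. Isocitrate lyase (HPODL_00142) and malate synthase (HPODL_01838), the 2 enzymes particular to the glyoxylate cycle, rose by 1.85 and 0.98 (FDR = 0.00301 and 0.000693), a glycine/D-amino acid oxidase (HPODL_00004), an enzyme that forms hydrogen peroxide, rose by 0.76 (FDR = 0.0492), and a copper-containing amine oxidase (HPODL_01219) fell by 0.65 (FDR = 0.00624). In IMD010, 5 of the 15 peroxisomal genes rose and 5 fell, and 3 of the 10 oxidation genes rose and 5 fell, where 29.4% of all genes were called higher and 29.5% lower.

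The last 2 lists bear on heme, the cofactor of both enzymes, and on cytochrome c, the partner of cytochrome c peroxidase. Of 5 genes of heme and tetrapyrrole synthesis, 1 rose and 3 fell from batch to 0.1 per h in CBS11895, and 2 rose and 1 fell in IMD010. From there to retentostat cultures of CBS11895 uroporphyrinogen III synthase (HPODL_00062) rose by 0.52 on the log2 scale (FDR = 0.00958) and the other 4 did not pass. The other list held 7 genes for cytochrome c oxidase, its assembly and cytochrome heme lyases. Of these, 4 rose and 2 fell from batch to 0.1 per h in CBS11895 and 2 rose in IMD010. From 0.1 per h to retentostat cultures of CBS11895 the assembly protein COX11 (HPODL_01149) rose by 0.37 (FDR = 0.0432) with the other 6 not passing. With 36.1% and 27.7% of all genes called higher from batch to 0.1 per h, and 18.0% from there to retentostat cultures of CBS11895, such counts over 5 and 7 genes set neither list apart.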

How the data were processed

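The authors deposited FPKM values (fragments scaled to transcript length and library size) for each gene and culture, made with STAR 2.5.3a, SAMtools, HTSeq and edgeR per the submitters' processing notes, after removal of ambiguously mapped reads. Reads were recovered from the steps between values, and 99.97% of the values above 0 came out whole (within 0.001 of a read for low values and 0.05 for high ones). TMM factors computed on these reads scaled the deposited FPKM values. Genes with a group mean of at least 10 in at least 1 group were tested in limma 3.58.1 (R 4.3.3) on log2(FPKM + 1) with 8 groups and Benjamini-Hochberg adjustment, and called at an FDR under 0.05. Fold changes are on that scale. Growth rate slopes were fitted by least squares per strain. Methods were tested on simulated data with equal spread in all groups and without a length trend. The divergent IMD010 cultures at 0.1 per h and the low short genes of CBS11895 batch cultures were thus not simulated. Genes named were both members, the 2 genes on each side of each, the 5 most correlated with each, and in each list up to 2 highest and 2 lowest among those called for retentostat over 0.1 per h in CBS11895. Members and lists were chosen with earlier results of these data known. P-values measure the spread between independent cultures, 2 per group. Alternatives changed the scaling, filter, pseudocount, samples fitted, weights, replicate block and length trend. Promoter and protein sequences were not used here.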

Additional observations from a re-analysis of the deposited data

Results flagged for a closer look

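For catalase, the change from batch to each glucose-limited condition differed between the strains by an interaction test in limma. The difference of the log2 fold changes (IMD010 minus CBS11895) was 1.18 for chemostat cultures at 0.1 per h (FDR = 0.00146), 0.81 for those at 0.025 per h (FDR = 0.0154) and 0.88 for retentostat cultures (FDR = 0.0123). All 3 rest on the same 4 batch cultures, and 44.0%, 34.9% and 29.4% of the genes tested were called higher in these contrasts. The median difference over all genes was itself 0.27, 0.22 and 0.15 in the same order. Each call was lost under an alternative: at 0.1 per h with sample quality weights and at 0.025 per h with the length trend removed. In retentostat cultures it was lost without a factor beyond the library total.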

How the results depend on the processing

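With 2 cultures per group, single cultures decided several calls, while the rise of both genes over batch kept its direction and call in both strains under all alternatives run. Apart from leaving out cultures, 476 values of the 2 genes and their ratio kept direction and side of the threshold, 14 changed sign, 9 gained a call and 13 lost one. Values below are log2 fold changes for catalase or for cytochrome c peroxidase (CCP), and the causes were not tested. Without a factor beyond the library total, the strain difference of CCP was 0.64 in batch (called), −0.081 at 0.1 per h and −0.10 in retentostat. CBS11895 from 0.1 to 0.025 per h was 0.27 for catalase (call lost) and −0.12 for CCP, and IMD010 was 0.25 for catalase from 0.1 per h to retentostat and 0.37 for CCP from 0.025 per h to retentostat (calls lost). The strain difference in the change from batch became −0.72, −0.51 and −0.74 for CCP (called) and 0.42 for catalase in retentostat (call lost), that from 0.025 per h to retentostat −0.13 for catalase, and the CCP slope difference −0.17. Median-of-ratios factors turned 3 uncalled CCP values to −0.0072 (strains at 0.1 per h), 0.020 (strain difference from 0.1 per h to retentostat) and −0.13 (slope difference). With the length trend removed, with or without the replicate block, CCP was −0.021 and −0.0052 between strains at 0.1 per h and in retentostat and 0.016 for the strain difference from 0.1 per h to retentostat, and the catalase interaction at 0.025 per h was 0.50 (call lost). Fits of a contrast's own samples gave calls for catalase from 0.025 per h to retentostat (0.27 in CBS11895, 0.35 in IMD010, the latter also with sample weights), and with either choice IMD010 from 0.1 per h to retentostat lost its calls (0.47 and 0.68). Sample weights lost the catalase interaction at 0.1 per h (1.18). The log scale called CCP slopes of −0.36 and −0.35. Taken over all groups, replicate numbers did not pair the cultures (28 pairs of groups, correlation −0.32 to 0.41, 6 above 0.1). The replicate block lost the call of catalase from 0.1 to 0.025 per h in CBS11895 (0.49), as did voom weights (0.49).

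Leaving out single cultures gave these ranges where a sign or call changed. Between strains they were −0.055 to 0.47 (catalase) and −0.062 to 0.12 (CCP) at 0.1 per h, and for CCP −0.17 to 0.25 at 0.025 per h and −0.029 to 0.060 in retentostat. In CBS11895 from 0.1 to 0.025 per h they were 0.44 to 0.55 (catalase) and −0.12 to 0.31 (CCP), and from there to retentostat 0.39 to 0.81 (CCP). In IMD010 they were −0.14 to 0.39 and 0.21 to 0.73 for catalase from 0.1 per h to 0.025 per h and to retentostat, and 0.53 to 0.62 for CCP from 0.025 per h to retentostat. For strain differences in response they were 0.63 to 0.95 and 0.69 to 1.03 for catalase (0.025 per h and retentostat over batch), −0.63 to −0.11 (catalase) and −0.20 to 0.22 (CCP) from 0.1 to 0.025 per h, −0.56 to −0.032 and −0.10 to 0.078 from 0.1 per h to retentostat, and −0.020 to 0.15 and −0.24 to 0.19 from 0.025 per h to retentostat. CCP slopes ran from −4.58 to −3.20 in CBS11895, and the CCP slope difference from −1.08 to 0.62. Counts of called genes moved by over 1.5 times in many contrasts when single cultures were left out (15 to 4128 in place of 176 between strains at 0.1 per h, 20 to 38 in place of 78 at 0.025 per h, 31 to 69 in place of 188 in retentostat, 715 to 925 in place of 1559 from 0.1 to 0.025 per h in CBS11895). Fitted alone and with sample weights, the 3 strain counts were 0 and 0 (limma, with 2105 at an unadjusted p-value under 0.05 in the fit of all samples), 481 and 993, and 1405 and 1784, and without a factor that at 0.025 per h was 202. The edgeR alternative was not run, since the deposited unit is FPKM.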
